A study of Mus musculus with 4 samples.

Results

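Genes that switch fat synthesis on or hold it back were read in single-nucleus RNA sequencing of mouse liver. They were named one by one, as Srebf1, Thrsp, Mlxipl, Nr1h3, Insig1 and Insig2, and all 6 were found among the 32285 gene symbols of the count matrices. Nuclei from livers of mice fasted for 16 to 24 h were compared with nuclei from livers of fed mice, with 2 libraries in each group (fasted 1, fasted 2, fed 1 and fed 2). Each library was 1 preparation of nuclei from 50 mg of frozen liver pooled over 8 mice. The sources used here give no strain, sex, age or time of day. Whether both preparations of 1 group drew on the same mice is unstated, so p-values measure the spread between preparations, which may be technical.

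SREBP-1, made from Srebf1, and ChREBP, made from Mlxipl, are transcription factors that turn on the enzymes of fatty acid synthesis, SREBP-1c after insulin and ChREBP after glucose. LXR-alpha, made from Nr1h3, is a nuclear receptor for oxysterols that drives the SREBP-1c promoter, and Thrsp encodes the nuclear protein Spot 14, a classic marker of lipogenic demand. INSIG1 and INSIG2 are proteins of the endoplasmic reticulum that retain the SREBP escort SCAP when sterols are plentiful, and INSIG1 is itself an SREBP target. Mouse liver also makes Insig2 from a liver-specific transcript that insulin represses.

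The 6 genes lie on 5 autosomes of mm10 and each spans exons and introns of a protein-coding gene in the GENCODE annotation. Srebf1 is at chr11:60199089-60222581, Thrsp at chr7:97412938-97417730, Nr1h3 at chr2:91184061-91202834 and Insig2 at chr1:121304353-121332589, all on the minus strand. Mlxipl is at chr5:135089890-135138382 and Insig1 at chr5:28071363-28078662, both on the plus strand. Each has from 2 to 14 annotated transcripts, and the counts are 1 value per gene, so SREBP-1a and SREBP-1c, the ChREBP forms and the Insig2 transcripts are not told apart. Rai1 overlaps Srebf1 on the opposite strand, and the predicted gene Gm13783 overlaps Nr1h3 on the same strand. The sources used here do not state whether counting used strand.

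RefSeq (GRCm38.p6) lists 12 start sites for these genes, and the 250 bases before each were searched on both strands for 5 motifs. Those before the only Insig1 and Thrsp start sites and before the outer and the next Insig2 start site are shown, because the Insig genes had fasting estimates of opposite sign and Thrsp had the largest. Capitals mark the E-box CACGTG, the CCAAT box CCAAT and the GC box GGGCGG, on either strand.
Insig1 (chr5:28071162-28071411, plus strand): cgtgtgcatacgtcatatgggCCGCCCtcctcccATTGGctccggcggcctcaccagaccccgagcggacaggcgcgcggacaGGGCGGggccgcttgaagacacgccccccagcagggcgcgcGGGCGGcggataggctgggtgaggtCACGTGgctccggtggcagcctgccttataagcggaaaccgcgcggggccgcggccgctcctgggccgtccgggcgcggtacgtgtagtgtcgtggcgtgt
Insig2, outer start site (chr1:121332590-121332839, minus strand): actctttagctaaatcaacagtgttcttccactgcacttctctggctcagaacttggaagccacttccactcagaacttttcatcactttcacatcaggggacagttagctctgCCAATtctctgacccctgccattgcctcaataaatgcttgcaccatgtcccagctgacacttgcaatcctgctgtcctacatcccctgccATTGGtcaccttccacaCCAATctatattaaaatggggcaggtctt
Insig2, next start site (chr1:121328025-121328274, minus strand): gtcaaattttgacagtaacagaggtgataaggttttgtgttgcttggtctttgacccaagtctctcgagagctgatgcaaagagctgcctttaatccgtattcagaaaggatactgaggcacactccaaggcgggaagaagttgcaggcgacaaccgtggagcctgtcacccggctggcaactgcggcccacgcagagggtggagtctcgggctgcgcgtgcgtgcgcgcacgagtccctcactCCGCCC
Thrsp (chr7:97417551-97417800, minus strand): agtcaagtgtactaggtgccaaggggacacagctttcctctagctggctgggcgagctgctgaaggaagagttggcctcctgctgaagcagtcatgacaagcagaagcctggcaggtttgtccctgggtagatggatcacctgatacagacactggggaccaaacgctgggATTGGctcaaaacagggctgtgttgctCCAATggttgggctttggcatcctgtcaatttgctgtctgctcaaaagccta

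The Insig1 sequence held 1 E-box, 1 CCAAT box and 3 GC boxes, the outer Insig2 sequence 3 CCAAT boxes, the next Insig2 sequence 1 GC box and the Thrsp sequence 2 CCAAT boxes. Over the 12 sequences of all 6 genes, 6 held a CCAAT box, 6 a GC box and 2 an E-box, which were those of Insig1 and the outer one of Mlxipl. Among 32851 such sequences of all genes, 33.8% held a CCAAT box, 32.7% a GC box and 6.02% an E-box. The sterol response core TCACNCCA was in 1 member sequence, the inner one of Mlxipl, and in 3.67% of all. A direct repeat of AGGTCA with a spacing of 4 bases, the consensus for LXR, was in none of the 12 and in 0.0152% of all. These are letter matches in short windows and say nothing about binding.

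After filtering, 29724 nuclei formed 20 clusters, of which 10 carried hepatocyte markers such as Alb and Apob. These hepatocyte-like nuclei, called hepatocytes from here on, numbered 5392, 4556, 5072 and 3743 in fasted 1, fasted 2, fed 1 and fed 2, with 20940027, 19242623, 16844682 and 6662785 counts of unique molecular identifiers (UMIs, 1 per captured transcript). The 10 hepatocyte markers summed to 21876 and 16375 CPM in fasted 1 and 2, and to 17916 and 9938 CPM in fed 1 and 2 (CPM, counts scaled to a common library total). Hepatocytes of fed 2 were the shallowest, at a median of 1282 UMIs against 2547 to 3240 in the other libraries, and most hepatocyte clusters came mainly from 1 library. Of the 3743 hepatocytes of fed 2, 3340 fell in 1 cluster that held few nuclei of other libraries. Its leading genes were Taco1, Gm15218, Gm48099 and Gm42418, and 8 of the 10 hepatocyte markers were detected in it. Any 2 libraries shared between 12 and 42 cell barcodes, of at least 5396 each.

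Fasting went with lower levels of both lipogenic switches and of Thrsp in hepatocytes, with lower Insig1 and with higher Insig2, while the libraries of both groups overlapped for Nr1h3. In edgeR's quasi-likelihood test with Benjamini-Hochberg adjustment over 13986 genes, 0 of the 6 members passed an adjusted p of 0.05, as against 0.00715% of all genes. At an unadjusted p under 0.05 stood 5 of the 6, against 6.84% of all genes. DESeq2 called 4 of the 6, Srebf1, Thrsp, Mlxipl and Insig2, against 1.14% of all genes. The fasted and fed libraries did not overlap for 5 of the 6, against 36.4% of all genes. The 6 were chosen with earlier results of these data known, so such shares, here and below, are descriptions. Verbs of change below refer to the genes that DESeq2 called.

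**Figure D1:**
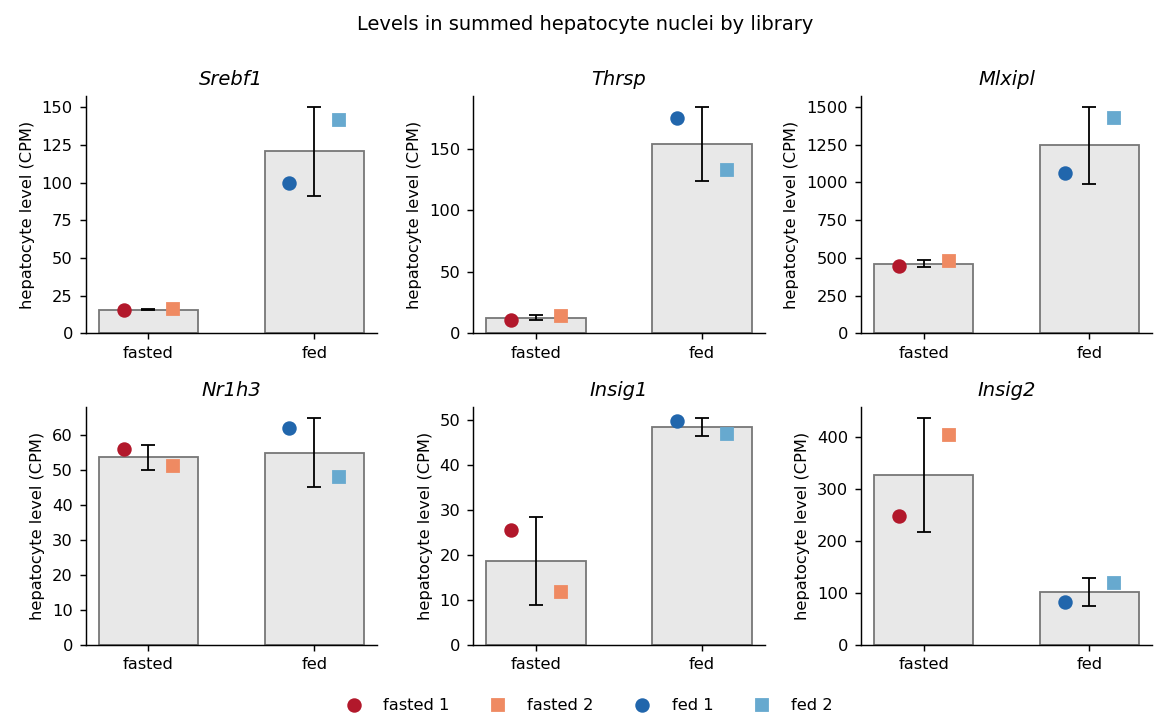
Level of each gene in the summed hepatocyte nuclei of each library, in CPM on linear axes. Points are libraries (fasted left, fed right), bars are group means and whiskers are 1 SD with 2 libraries per group; the groups overlap for Nr1h3.

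Srebf1 reached only 15.6 and 15.9 CPM in fasted 1 and 2 (327 and 306 UMIs), against 100.0 and 142 CPM in fed 1 and 2 (1684 and 944 UMIs). The fasted libraries were nearly equal and both lay far below the fed ones. The log2 fold change was −2.98 (SE 0.37, edgeR unadjusted p = 1.63e-04, adjusted p = 0.206), and Srebf1 fell in DESeq2 (adjusted p = 1.46e-08). Shares of nuclei with a UMI were taken after thinning each nucleus to 1500 UMIs, which left out shallower nuclei and kept 4797, 4220, 4345 and 1543 hepatocytes of fasted 1, fasted 2, fed 1 and fed 2, so that most of fed 2 is not in them. Among the hepatocytes kept, 2.73% and 2.68% held an Srebf1 UMI in fasted libraries, against 14.1% and 18.4% in fed ones. Over all hepatocytes, unthinned, the shares were 5.73% and 6.26% in fasted, and 24.4% and 19.4% in fed libraries. Srebf2, the gene for the cholesterol-side factor, had a log2 fold change of −0.35 (SE 0.45, edgeR adjusted p = 0.981). Srebf1 UMIs per Srebf2 UMI were 0.300 and 0.217 in the fasted libraries, against 1.89 and 1.40 in the fed ones.

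Thrsp showed the largest change of the 6 in this comparison. It was at 11.1 and 13.9 CPM in fasted 1 and 2, against 175 and 133 CPM in fed 1 and 2. Every fed hepatocyte library was far above both fasted ones, by a log2 fold change of −3.64 (SE 0.35, edgeR unadjusted p = 3.70e-05, adjusted p = 0.170) for fasted minus fed. Only 1 gene had a smaller unadjusted p, which put Thrsp at rank 2 of all genes tested. Thrsp fell in DESeq2 (adjusted p = 1.23e-14). Nuclei with a Thrsp UMI made up 1.81% and 2.37% of the thinned hepatocytes in fasted libraries, against 22.3% and 17.0% in fed ones (unthinned over all hepatocytes, 3.78% and 5.00%, against 33.5% and 17.6%).

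Mlxipl was at 444 and 481 CPM in fasted 1 and 2, against 1066 and 1426 CPM in fed 1 and 2. Both fasted libraries were below both fed ones. The log2 fold change was −1.47 (SE 0.34, edgeR unadjusted p = 0.00463, adjusted p = 0.537), and Mlxipl fell in DESeq2 (adjusted p = 0.0324). Of the thinned hepatocytes, 47.8% and 48.2% held a Mlxipl UMI in fasted libraries, against 72.1% and 84.7% in fed ones. Unthinned over all hepatocytes, the shares were 68.8% and 72.1% in fasted libraries, against 83.3% and 73.2% in fed ones, where fed 2 was the shallowest. Mlxip, the gene for the related sensor MondoA, gave 19.7 and 19.5 Mlxipl UMIs per Mlxip UMI in fasted libraries, against 44.1 and 44.6 in fed ones. This within-library ratio agreed closely between the preparations of a group.

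Nr1h3 was at 56.1 and 51.1 CPM in fasted 1 and 2, against 61.9 and 47.9 CPM in fed 1 and 2. The fed libraries lay on either side of the fasted ones. The log2 fold change was −0.06 (SE 0.30, edgeR adjusted p = 0.996), and the range of 2 SE on either side ran from −0.67 to 0.54, so a moderate change either way was not detectable. Nr1h2, the gene for LXR-beta, stood at 1 UMI per 3.42 and 5.37 Nr1h3 UMIs in fasted libraries, and per 4.45 and 5.41 in fed ones.

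Insig1 and Insig2 had estimates of opposite sign. Insig1 was at 25.5 and 11.6 CPM in fasted 1 and 2, against 49.9 and 47.0 CPM in fed 1 and 2, with fasted 2 the lowest. Its log2 fold change was −1.43 (SE 0.44, edgeR unadjusted p = 0.0172, adjusted p = 0.621), and it was not called by DESeq2 either (adjusted p = 0.164). Insig2 was at 248 and 404 CPM in fasted 1 and 2, against 81.3 and 119 CPM in fed 1 and 2. Both fasted libraries exceeded both fed ones, though fasted 2 was well above fasted 1. The log2 fold change of Insig2 was 1.66 (SE 0.42, edgeR unadjusted p = 0.00721, adjusted p = 0.542), and it rose in DESeq2, just inside the threshold (adjusted p = 0.0483). Nuclei with an Insig2 UMI made up 27.4% and 38.8% of the thinned hepatocytes in fasted, and 11.6% and 16.0% in fed libraries (unthinned over all hepatocytes, 44.1% and 59.2%, against 20.5% and 16.2%). The balance between the Insig genes lay wide apart, with 9.73 and 34.7 Insig2 UMIs per Insig1 UMI in fasted libraries, against 1.63 and 2.54 in fed ones.

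Hepatocytes were then placed along the lobule, the unit that runs from portal vein to central vein. Each nucleus was scored by 8 pericentral landmarks, such as Glul and Cyp2e1, minus 10 periportal ones, such as Cyp2f2 and Sds, none of them a member. The 4797, 4220, 4345 and 1543 scored nuclei of fasted 1, fasted 2, fed 1 and fed 2 were split into 3 bins of equal size per library. Glul reached 360 and 473 CPM in the pericentral bin of fasted 1 and 2, against 20.1 and 15.1 CPM in the periportal bin. In fed 1 and 2 it reached 302 and 497 CPM, against 13.9 and 5.72 CPM. Lgr5, another pericentral landmark, was at 217 and 193 CPM in the pericentral bin of fasted 1 and 2, against 1.47 and 0.930 CPM. In fed 1 and 2 Lgr5 was at 223 and 403 CPM, against 7.08 and 26.4 CPM. Glul and Lgr5 are part of the score, so their separation follows from how the bins were made and is no check of them. Whether a bin covers the same positions in each library was not tested. The pericentral bin was the deepest and the periportal bin the shallowest in every library, with median UMIs per nucleus of 3436 against 2800 in fasted 1, 3735 against 3064 in fasted 2, 3232 against 2606 in fed 1 and 2493 against 2206 in fed 2. Summed endothelial markers were between 3.16 and 35.8 CPM in all 12 bins. Summed T or NK cell markers were 52.8 CPM in the pericentral against 5.15 CPM in the periportal bin of fasted 1, 23.6 against 3.91 CPM in fasted 2, 7.44 against 7.93 CPM in fed 1 and 11.5 against 2.86 CPM in fed 2. The part of depth and of these markers in the results by position was not tested.

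With library as a block, edgeR called 5 of the 6 members between pericentral and periportal bins, against 18.3% of 12257 genes. Srebf1, Thrsp, Insig1 and Insig2 were lower in pericentral nuclei, Mlxipl was higher, and Nr1h3 was not called. DESeq2 called 2 of the 6, Thrsp and Mlxipl, against 9.05% of genes.

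**Figure D2:**
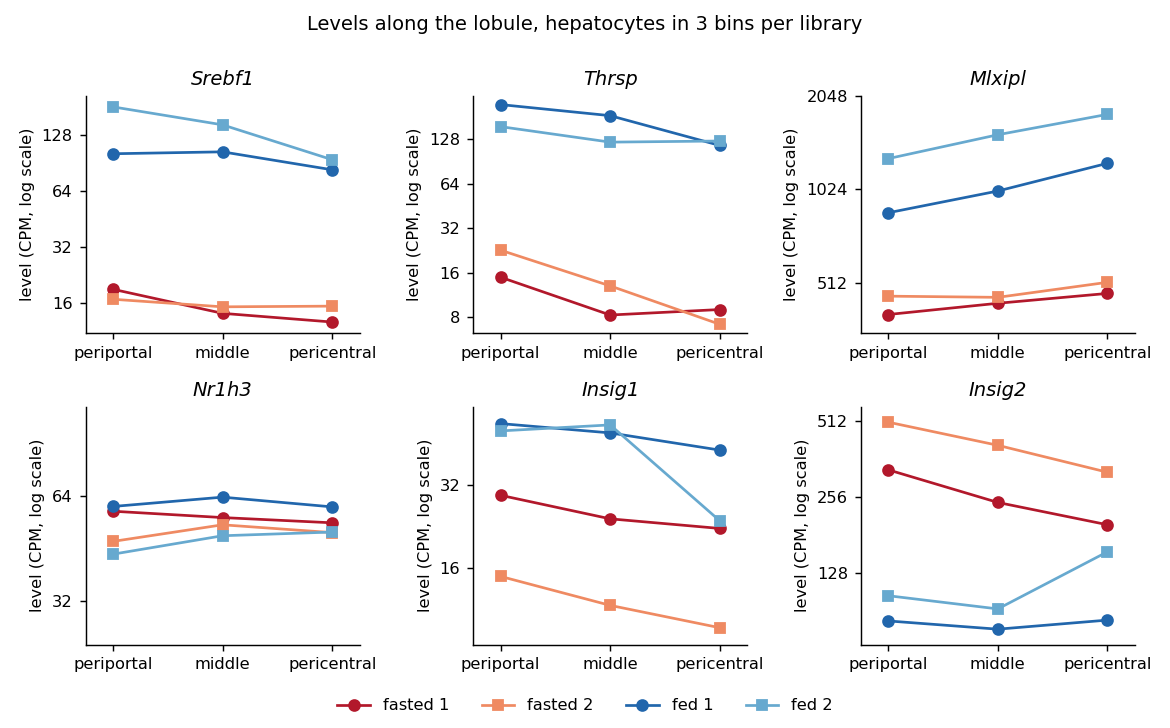
Level of each gene in periportal, middle and pericentral hepatocytes of each library, in CPM on log axes, with 1 line per library. Insig2 slopes down toward the central vein in fasted 1 and 2, where it ends at 198 and 319 CPM, and not in fed 1 and 2, where it ends at 83.0 and 155 CPM.

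Mlxipl was at 472 and 513 CPM in pericentral nuclei of fasted 1 and 2, against 1244 and 1791 CPM in those of fed 1 and 2. In periportal nuclei it stood at 403 and 463 CPM in fasted 1 and 2, against 860 and 1288 CPM in fed 1 and 2. Every library was higher on the central side, with a mean log2 difference of 0.35 (SE 0.05, edgeR adjusted p = 2.68e-06). Thrsp had the opposite slope. It was at 9.02 and 7.17 CPM in pericentral nuclei of fasted 1 and 2, against 14.9 and 22.7 CPM in periportal ones, and at 116 and 124 CPM in pericentral nuclei of fed 1 and 2, against 219 and 155 CPM in periportal ones. The mean log2 difference of Thrsp was −0.95 (SE 0.15, edgeR adjusted p = 6.80e-04), with all 4 libraries lower on the central side.

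Srebf1 and Insig1 had shallower slopes of the same sign. Srebf1 was lower on the central side in all 4 libraries, by factors of 0.666 and 0.918 in fasted 1 and 2 and 0.819 and 0.519 in fed 1 and 2 (mean log2 difference −0.44, SE 0.12, edgeR adjusted p = 0.0102). The call for Srebf1 was lost without fasted 1 (adjusted p = 0.122). Insig1 stood at 0.758 and 0.652 times its periportal level in fasted 1 and 2, and at 0.802 and 0.473 times in fed 1 and 2 (mean log2 difference −0.49, SE 0.12, edgeR adjusted p = 0.00260). The Nr1h3 ratios lay on both sides of 1, from 0.926 in fasted 1 to 1.16 in fed 2 (mean log2 difference 0.02, SE 0.09, adjusted p = 0.922).

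The effect of fasting on Insig2 depended on position. Insig2 was at 198 and 319 CPM in pericentral nuclei of fasted 1 and 2, against 83.0 and 155 CPM in those of fed 1 and 2. In periportal nuclei Insig2 was at 327 and 504 CPM in fasted 1 and 2, against 82.3 and 104 CPM in fed 1 and 2. Pericentral nuclei thus held 0.606 and 0.633 times the periportal level in the fasted libraries, and 1.01 and 1.49 times in the fed ones, with no overlap. Within bins, the log2 fold change of Insig2 for fasted minus fed was 2.11 (SE 0.40) in the periportal, 1.92 (SE 0.41) in the middle and 1.04 (SE 0.47) in the pericentral bin.

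The difference between the pericentral and the periportal fasting effect of Insig2 was −0.94 on the log2 scale (SE 0.14, edgeR interaction test, adjusted p = 7.92e-04). This was the only 1 of the 6 members called in that test, against 0.538% of all genes. DESeq2 also called it, against 0.0734% of all genes, and the call held in all 12 alternatives, with estimates from −1.29 to −0.74 and adjusted p of at most 0.0222. The smallest estimate, −0.74, came without fed 2, whose pericentral bin was the highest fed value. With the score cut into 5 bins, running from portal to central, Insig2 was lower in each bin than in the one before it in fasted 1 (356, 285, 237, 217 and 187 CPM) and in fasted 2 (506, 484, 433, 346 and 283 CPM). In fed 1 the same 5 bins gave 92.8, 75.4, 70.3, 81.0 and 84.0 CPM, and in fed 2 they gave 86.9, 123, 79.8, 152 and 144 CPM with 73 to 141 UMIs each. The slope was regular in the fasted libraries and irregular in the fed ones. Because of this interaction, the mean positional difference of Insig2 (log2 −0.23, SE 0.07, adjusted p = 0.0181) averages ratios below 1 in fasted libraries and above 1 in fed ones, and its call was lost without fasted 1, fasted 2 or fed 1 (adjusted p = 0.146, 0.0981 and 0.773), with the score on 1000 UMIs (0.0977), with pericentral landmarks alone (0.130) and in DESeq2 (0.380).

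**Figure D3:**
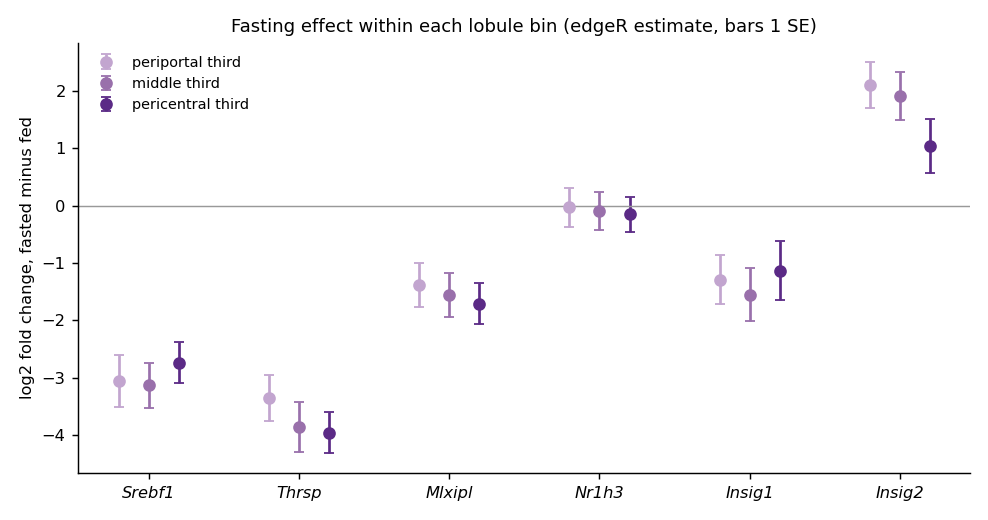
Fasting effect within each of 3 lobule bins for the 6 genes, as the log2 fold change for fasted minus fed with 1 SE as whiskers. Insig2 stands at 1.04 in the pericentral and 2.11 in the periportal bin. The periportal and middle whiskers overlap for Insig2, and those of all neighbouring bins overlap for the other genes.

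For Mlxipl the fasting effect was −1.71 (SE 0.37) in the pericentral and −1.38 (SE 0.39) in the periportal bin, a difference of −0.33 (SE 0.10, edgeR interaction test, adjusted p = 0.205). Without fed 2 this difference passed (adjusted p = 0.00513). For Thrsp the effects were −3.96 (SE 0.36) and −3.35 (SE 0.40) in the pericentral and periportal bins, a difference of −0.50 (SE 0.30, adjusted p = 0.845).

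Hepatocyte clusters of 1 library also differed in their levels. In fed 1, the cluster led by the acute-phase genes Saa1 and Saa2 (1706 nuclei) held Srebf1 at 129 CPM, Thrsp at 235 CPM and Insig2 at 70.0 CPM. The largest other hepatocyte cluster of fed 1 (2786 nuclei) held them at 86.1, 154 and 85.8 CPM. A smaller one with the pericentral genes Slc1a2 and Glul among its leading genes (515 nuclei) held them at 80.4, 94.9 and 90.2 CPM. All 3 genes were on the fed side of both fasted libraries in all 3 clusters. The acute-phase cluster held only 3 nuclei of fed 2. These values are descriptions, since clusters are drawn from the same counts.

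The other genes of these pathways were read in 6 lists, and in hepatocytes none of their genes passed edgeR's adjusted threshold. The lists too were chosen with earlier results of these data known, so their shares are descriptions. The sterol synthesis list lay farthest from 0. Of 22 SREBP-2 targets of cholesterol synthesis and uptake, 20 had lower estimates in fasted, 14 at an unadjusted p under 0.05 (against 3.11% of all genes), and 7 fell in DESeq2 (against 0.644%). The median log2 fold change of that list was −1.55, against −0.01 over all genes, and fasted and fed libraries did not overlap, lower in fasted, for 18 of 22 against 15.8% of all genes. Sqle, which makes squalene epoxidase, was at 3.06 and 1.82 CPM in fasted 1 and 2, against 28.0 and 37.2 CPM in fed 1 and 2 (log2 fold change −3.79, SE 0.48, DESeq2 adjusted p = 6.28e-10). Mvd, the gene for a decarboxylase of the mevalonate route, had a log2 fold change of −3.08 (SE 0.53) and was also called by DESeq2.

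Of 17 tested SREBP-1c targets of fatty acid synthesis (18 listed), 14 had lower estimates, with a list median of −0.53. Of these, 7 stood at an edgeR unadjusted p under 0.05 (against 3.11% of all genes) and 5 fell in DESeq2 (against 0.644%). The libraries did not overlap, lower in fasted, for 9 of 17 against 15.8% of all genes. Fasn, the fatty acid synthase gene, was at 9.50 and 10.8 CPM in fasted 1 and 2, against 40.4 and 73.7 CPM in fed 1 and 2 (log2 fold change −2.54, SE 0.45). Aacs, an acetoacetyl-CoA synthetase gene, had a log2 fold change of −1.96 (SE 0.35). DESeq2 called both genes. Of 10 tested ChREBP targets (11 listed), 4 had lower and 6 higher estimates with a median of 0.01. Pklr, the liver pyruvate kinase gene, was the only 1 that DESeq2 called, against 1.14% of all genes (log2 fold change −1.72, SE 0.37, adjusted p = 0.0133). Gpd1 had a log2 fold change of 1.27 (SE 0.58) and Klf10 −0.93 (SE 0.34), neither called. The list thus did not share the direction of Mlxipl as a whole.

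The 20 genes of SREBP escort, cleavage and degradation had a median log2 fold change of −0.13, with 12 estimates below 0 and none called by either tool. The widest were Syvn1 (−2.04, SE 0.90), Rnf145 (−0.95, SE 0.35) and Paqr3 (0.83, SE 0.57). Scap itself, the escort that INSIG proteins hold, had a log2 fold change of 0.06 (SE 0.34). Among 12 partner factors and coregulators the median was −0.27, and DESeq2 called 2, both lower in fasted (against 0.644% of all genes). They were Bhlhe40 (−1.99, SE 0.33), a basic helix-loop-helix repressor, and Mid1ip1 (−2.59, SE 0.67), whose product is the paralogue of Spot 14. Mid1ip1 rested on few counts, with 32 and 19 UMIs in fasted 1 and 2, against 76 and 68 in fed 1 and 2. Usf1 and Nr0b2 stood at −0.74 (SE 0.46) and −0.77 (SE 0.59). Of 9 tested LXR targets (10 listed), 5 had lower and 4 higher estimates, and neither tool called any. Cyp7a1, the rate-limiting enzyme of bile acid synthesis, stood at 1.66 (SE 0.46), Abcg5 at −0.87 (SE 0.47) and Abca1 at −0.85 (SE 0.29).

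**Figure D4:**
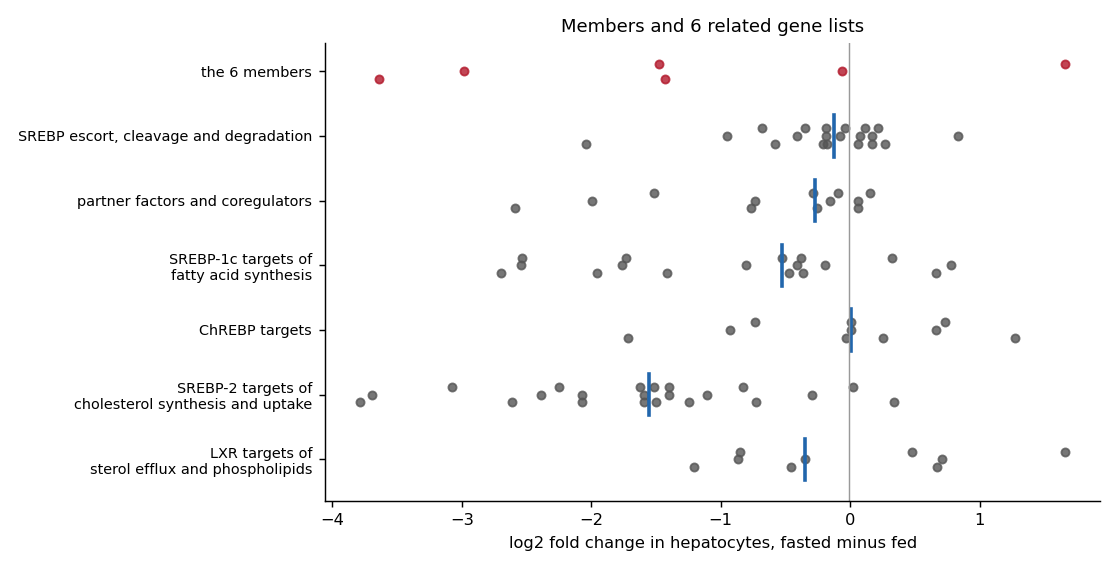
Log2 fold change in hepatocytes, fasted minus fed, of the 6 members (top row, red) and of the tested genes of 6 related lists (grey points, 1 per gene). Blue marks are list medians and the grey line is the median of all genes; the SREBP-2 targets have their median at −1.55.

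By position, the ChREBP targets lay opposite to Mlxipl. Of 10 tested, 8 were lower in pericentral nuclei and 0 higher (edgeR, as against 8.88% and 9.38% of all genes), with a median log2 difference of −0.92 for pericentral minus periportal. Pklr had a difference of −0.99, while Mlxipl stood at 0.35. Of 22 SREBP-2 targets 12 were lower in pericentral nuclei and 0 higher, and of 16 SREBP-1c targets 8 were lower and 3 higher. Fasn (−1.02) and Acly (−1.82), which makes ATP citrate lyase, shared the sign of Srebf1. Of 8 LXR targets 3 were higher in pericentral nuclei, Abca1 (0.36), Abcg5 (0.49) and Abcg8 (0.86), and 0 lower. Only 1 gene of the 6 lists was called for a fasting effect that differed by position, Nr0b2 (−1.06, SE 0.18, adjusted p = 0.00313), the gene for SHP, a repressor without a DNA-binding domain.

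In nuclei of other cell types Srebf1, Thrsp, Insig1 and Insig2 mostly tracked the hepatocytes of the same library. Hepatocyte markers did too. Their summed level in the 5 other tested types was from 30.6% to 91.0% of that in hepatocytes (median 63.9% over 20 library and type pairs). The median level of Thrsp over the same pairs was 67.4% of the hepatocyte level, that of Insig2 80.2%, of Insig1 76.9%, of Srebf1 58.6% and of Mlxipl 33.9%. Mlxipl followed the hepatocytes less closely, with fed 1 near fasted 2 in endothelial nuclei and in Kupffer cells. In endothelial nuclei Mlxipl was at 81.1 and 179 CPM in fasted 1 and 2, against 178 and 643 CPM in fed 1 and 2. In Kupffer cells it was at 173 and 271 CPM, against 276 and 1060 CPM. Nr1h3 had a median of 71.7% and the highest single value, 367% in Kupffer cells of fed 1 (148 UMIs). Among the other members the highest were 318% for Srebf1 and 271% for Insig1, both in cholangiocytes of fasted 2 (8 and 5 UMIs). Thrsp followed at 179% in endothelial nuclei of fasted 2 (26 UMIs). Levels at or near the marker level cannot be told apart from hepatocyte RNA carried into these nuclei and are not read as expression. The 10 markers taken 1 by 1 spread from 17.1% to 192% in Kupffer cells, so the expected level is itself uncertain.

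**Figure D5:**
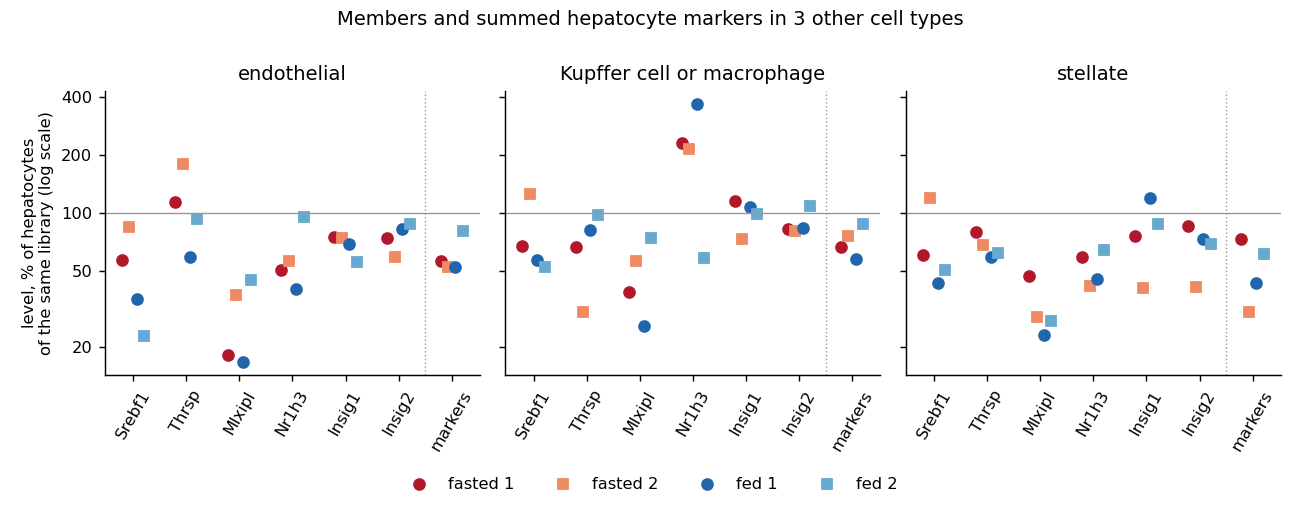
Level of each member, and of the summed hepatocyte markers at the right of each panel, in endothelial, Kupffer and stellate nuclei as a percentage of hepatocytes of the same library, on a log axis. Points are libraries; Nr1h3 in Kupffer cells stands above 200% in 3 libraries and at 58.3% in fed 2.

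Nr1h3 in Kupffer cells, the resident macrophages of the liver, stood above hepatocytes in 3 of 4 libraries. Its level was 129 and 110 CPM in fasted 1 and 2 (122 and 77 UMIs), against 227 and 27.9 CPM in fed 1 and 2 (148 and 3 UMIs). These were 230%, 215%, 367% and 58.3% of the hepatocyte levels, where the markers stood at 66.6%, 76.3%, 57.3% and 87.2%. In fasted 1, fasted 2 and fed 1 the level was above that of every hepatocyte marker, while the 3 UMIs of fed 2 came from 89 nuclei. The fed libraries lay on either side of the fasted ones. The fasting effect on Nr1h3 in Kupffer cells was −0.23 on the log2 scale (SE 0.65, edgeR adjusted p = 0.999). It ran from −0.84 without fed 2 to 1.98 without fed 1, with its sign turned. Thrsp in endothelial nuclei was at 12.6 and 24.9 CPM in fasted 1 and 2, against 103 and 123 CPM in fed 1 and 2, or 114%, 179%, 58.9% and 92.9% of the hepatocyte levels, where the markers stood at 56.0%, 52.4%, 52.3% and 80.2%. Single hepatocyte markers there reached 163%, 135%, 110% and 92.6%. In endothelial nuclei Nr1h3 was at 28.4 and 28.8 CPM in fasted 1 and 2, against 24.8 and 45.4 CPM in fed 1 and 2, below the hepatocytes of each library.

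Outside hepatocytes edgeR called 0 of 22 tested pairs of member and cell type between fasted and fed, against 0.0424% of all pairs of gene and cell type. An unadjusted p under 0.05 was reached by 14 of the 22, against 3.53% of all pairs. DESeq2 called 3, against 0.139% of all pairs, which were Thrsp in endothelial, Kupffer and stellate nuclei. Thrsp had log2 fold changes of −2.65 (SE 0.51) in endothelial, −4.48 (SE 0.56) in Kupffer and −3.34 (SE 0.60) in stellate nuclei. In fasted 1 and 2 it rested on 27 and 26 UMIs in endothelial, 7 and 3 in Kupffer and 16 and 4 in stellate nuclei. Insig2 stood at 1.34 (SE 0.42), 1.52 (SE 0.54) and 1.53 (SE 0.50) in the same types, and Srebf1 at −1.70 (SE 0.58), −2.05 (SE 0.63) and −1.99 (SE 0.69). Srebf1 in fed 2 rested on 5, 8 and 7 UMIs in these types. The part of carried hepatocyte RNA in these estimates was not tested. The remaining 8 pairs, in cholangiocytes and B or plasma cells, had too few counts to test, and T or NK cells were not tested because fed 2 held 6 of them.

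The fasting effect in hepatocytes was also set against that in each other type by an interaction test. Of 30 pairs of member and type, edgeR called 0, against 0.207% of all pairs of gene and type. The 8 pairs with too few counts in the other type entered here through their hepatocyte counts. The 0 does not show equal effects, since levels near the marker level cannot be told apart from carried hepatocyte RNA. Of the 30 pairs, 3 had an unadjusted p under 0.05, against 4.2% of all, and DESeq2 called 0, against 0.0494%. The nearest was Thrsp against endothelial nuclei, whose fasting effect was more negative in hepatocytes by 1.06 (SE 0.35, adjusted p = 0.349). With 1 library left out, this difference ran from −1.33 to −0.58. That of Mlxipl against Kupffer cells ran from −1.07 to 0.51 and kept its sign in 5 of 8 alternatives.

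The genes most like each member were found by Pearson's r of log2(CPM + 1) over 24 sums, 1 per library and tested cell type, among genes tested in hepatocytes. Sums of 1 library share depth and carried RNA, so r is a description. Srebf1 was most like Slc41a2 (0.85), Acaca (0.83) and Sqle (0.81), and Thrsp like Hsd3b5 (0.85), Acaca (0.84) and Cyp2c70 (0.83). Acaca encodes acetyl-CoA carboxylase, the first committed enzyme of fatty acid synthesis, and was near both. Mlxipl was most like Hsd17b2 (0.92), Neat1 (0.90) and Gm26917 (0.90), of which Neat1 is a nuclear noncoding RNA. These genes, like Mlxipl, had their highest hepatocyte level in fed 2 (553, 7547 and 5895 CPM). Insig1 was most like Selenbp2 (0.88), Bhlhe40 (0.86) and Ripk2 (0.86), and Insig2 like Abat (0.96), Dhrs4 (0.96) and Agpat3 (0.95). Nr1h3 had the weakest likeness, to Uvrag (0.73), Lcp1 (0.71) and Cd68 (0.69), of which Lcp1 and Cd68 are known macrophage genes. In hepatocytes Lcp1 was at 260 and 316 CPM in fasted 1 and 2, against 270 and 320 CPM in fed 1 and 2. Cd68 was at no more than 1.96 CPM there.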

How the data were processed

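Nuclear RNA of 4 libraries (10x chemistry, 2 fasted and 2 fed) was analysed. The authors deposited raw UMI counts per gene and barcode, with files that name the barcodes and genes. Alignment to mm10 used Cell Ranger 6.0, per the submitters' processing notes. No source used here states whether intronic reads were counted. Between 13.2% and 17.0% of stored entries were 0, so some counts may have been lowered before deposit, and counting each as 1 was an alternative.

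Barcodes were kept from 500 detected genes upward, if no more than 5% of their counts were mitochondrial. The barcodes with the highest Scrublet scores were removed, at 0.8% per 1000 barcodes, because the automatic threshold marked 1986, 0, 1 and 1. This left 10150, 6609, 8819 and 4146 nuclei in fasted 1, fasted 2, fed 1 and fed 2, from totals of 30955600, 24139311, 22924339 and 8078755 UMIs. Clusters (scanpy 1.11.5, leidenalg 0.10.2, resolution 1) were named by fixed markers, at least 3 of them detected in 10% of nuclei, a condition set after clusters were seen. Mitochondrial genes led 1 cluster of 134 nuclei, which stayed unnamed. Counts were summed per library and cell type, or per lobule bin, and tested in edgeR 4.0.16 (robust quasi-likelihood F test, TMM, filterByExpr, adjusted p threshold 0.05), with DESeq2 1.42.0 as the other tool. The scripts were tested on simulated data. SE is the log2 fold change divided by the square root of F, and each log2 fold change is fasted minus fed unless pericentral minus periportal is stated. A cell type was tested if each library held 20 or more of its nuclei. The zonation score was computed on counts thinned to 1500 UMIs, and split-half scores correlated at 0.614 to 0.668 across nuclei. Landmarks in under 2% of hepatocytes of any library were dropped, which left 8 of 12 pericentral and 10 of 11 periportal ones.

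The members and lists were chosen with earlier results of these data known. The genes named from each list are the 3 with the largest absolute log2 fold change at a mean of at least 5 CPM and any that passed over all genes, and some of these are not reported here. Others were named after their values were seen: Srebf2, Scap, Mid1ip1, Acaca, Acly, Abcg8, and the likeness genes by rank. Marchf6 is March6 in the matrices. No protein sequences were used.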

Additional observations from a re-analysis of the deposited data

Results flagged for a closer look

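The fasting effect on Insig2 differed between hepatocytes of the pericentral and the periportal bin by −0.94 on the log2 scale (SE 0.14, adjusted p = 7.92e-04), by the edgeR interaction test with library as a block. The pericentral level was 0.606 and 0.633 times the periportal level in fasted 1 and 2, against 1.01 and 1.49 times in fed 1 and 2. Groups of 2 libraries are too small for a check of single outlying libraries.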

How the results depend on the processing

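Among 6 members between fasted and fed hepatocytes, edgeR called 0. Without a low-count filter it called 4, DESeq2 called 4, and the replicate block, with replicate numbers as pairs, called 3. Leaving out 1 library gave 0 to 3, with 0 without either fasted library and 3 without fed 1 or without fed 2. Over all genes the count was 1, and it was 0 with stored zeros as 1, 0 with RLE scaling, 276 without the filter, 160 in DESeq2, 103 with the replicate block and 3 to 333 with a library left out. The numbers carry no stated batch. The deviations fasted 1 minus 2 and fed 1 minus 2 correlated at 0.43 across genes, a hint from 2 pairs only, so the block was not used. No other alternative changed that count of members, and the signs of Srebf1, Thrsp, Mlxipl, Insig1 and Insig2 held in all 12. In other cell types 0 pairs became 1 without doublet removal, 3 without the filter, 3 in DESeq2, 5 with the replicate block and 0 to 5 with a library left out.

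Between lobule bins 5 members were called, 2 in DESeq2, 4 with the score on 1000 UMIs, 4 with pericentral landmarks alone (Insig2 lost in both) and 3 to 5 with a library left out, and 2239 genes became 1109 in DESeq2 and 1472 to 2573. The fasting effect differed by position for 1 member, and for 1 to 2 with a library left out (also Mlxipl without fed 2 and Thrsp without fed 1, adjusted p = 0.0265). Over all genes 66 became 40 in 5 bins, 28 on 1000 UMIs, 16 with periportal landmarks alone, 124 without the filter, 9 in DESeq2 and 25 to 258. Between hepatocytes and other types 0 pairs became 0 to 2 with a library left out, 2 without fed 2.

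Nr1h3 changed sign. Between feeding states it ranged from −0.17 to 0.061 with a library left out. Between bins it was −0.039 with stored zeros as 1, −0.030 with pericentral landmarks alone and −0.015 to 0.098 with a library left out. In Kupffer cells it was −0.84 to 1.98. Of 300 comparisons of a single member estimate, as given in the report, with an alternative, 247 kept direction and call, 38 gained the call, 9 lost it and 6 turned. Estimates outside these 300 turned too. By position, the fasting effect kept its sign in 6 of 12 alternatives for Insig1, 8 for Srebf1 and 9 for Nr1h3. The cause was not tested. Depth limits fed 2 and the types outside hepatocytes most.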
